A study of Drosophila melanogaster with 2 samples.

Results

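The peaks described here are binding sites of a tagged protein that lie just upstream of a gene and close to the start of at least 1 more gene. A peak was taken when its summit lay upstream of the nearest transcription start site (TSS) of a protein-coding gene, no more than 500 bp away, and when TSSs of 2 or more protein-coding genes lay within 500 bp of that summit. There were 508 such shared peaks among the 3216 peaks of the authors' conservative list, or 15.8%. In 487 of them the summit was near 2 genes, in 19 near 3 genes, in 1 near 4 genes and in 1 near 5 genes. They touched 1011 different genes, 7.24% of the 13968 protein-coding genes in the annotation. The 785 upstream peaks with a TSS of 1 gene within 500 bp served as the comparison set.

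The data come from chromatin immunoprecipitation with sequencing (ChIP-seq) with an anti-GFP antibody. The material was whole Drosophila melanogaster embryos aged 0 to 24 h, from a transgenic strain (CG14014-GFP) that expresses the CG14014 product fused to enhanced GFP. There was 1 group with 2 biological replicates, the chromatin was sonicated to 200 to 800 bp, and a possible control experiment named in the labels was not used. With whole embryos of mixed ages, binding in few cells and weak binding in many cells cannot be told apart, and the lists do not show which gene at a shared peak is regulated. With 1 group, no test between conditions was possible, and peaks are not replicates, so counts and percentages are given with 95% Wilson intervals that cover counting error only.

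Fly genes often lie head to head, that is, on opposite strands with their starts facing away from each other, so that a short stretch of DNA is upstream of both. Such divergent promoters are common among housekeeping genes, and the stretch between the starts is usually kept free of nucleosomes. Other neighbours share a single start, for example as parts of a dicistronic transcript, an RNA that carries more than 1 reading frame.

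The stretches between the starts of the strongest head-to-head pairs are printed first, because the summits described below lie inside them. They contain no annotated exon and were read on the plus strand, 5′ to 3′, from the RefSeq release 6 genome (dm6 coordinates). Capitals mark matches, on either strand, to the DREF word TATCGATA, the motif 1 word GGTCACAC, the TATA box word TATAAA, the AT-rich words TAATTA and TTAAAA, and the motif 7 words CAGCNCTA and CATCNCTA. The interval between CG7601 and CIA30 is chr3R:29736746-29736964, with the summit at base 107 of 219. That between mRpS10 and Art3 is chr3R:15229409-15229664, with the summit at base 129 of 256. For CenG1A and mRpS23 the summit and 50 bases to each side are shown, chr2L:13835414-13835514. That between Tcs5 and CHMP2B is chr3L:5139396-5139618, with the summit at base 111 of 223.
CG7601 and CIA30: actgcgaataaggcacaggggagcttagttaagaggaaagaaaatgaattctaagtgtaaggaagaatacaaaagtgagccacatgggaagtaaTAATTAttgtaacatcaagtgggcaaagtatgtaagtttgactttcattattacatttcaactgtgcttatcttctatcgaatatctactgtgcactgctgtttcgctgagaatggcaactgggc
mRpS10 and Art3: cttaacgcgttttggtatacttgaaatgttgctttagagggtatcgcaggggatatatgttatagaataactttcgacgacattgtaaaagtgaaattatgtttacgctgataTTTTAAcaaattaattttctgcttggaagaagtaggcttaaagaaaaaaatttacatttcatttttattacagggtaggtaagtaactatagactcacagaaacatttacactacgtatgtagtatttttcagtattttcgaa
CenG1A and mRpS23: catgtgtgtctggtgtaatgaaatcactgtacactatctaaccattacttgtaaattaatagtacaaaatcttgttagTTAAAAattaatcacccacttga
Tcs5 and CHMP2B: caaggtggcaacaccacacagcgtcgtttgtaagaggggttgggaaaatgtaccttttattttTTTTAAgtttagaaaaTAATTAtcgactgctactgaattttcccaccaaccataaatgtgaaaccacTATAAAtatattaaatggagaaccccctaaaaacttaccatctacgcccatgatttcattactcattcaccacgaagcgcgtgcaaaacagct

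A further set of 3 is shown because its summit windows hold TATCGATA, the core of the site bound by the factor DREF and a word that reads the same on both strands. The summit and 50 bases to each side are given for MED17 and CG12321 (chr3R:18188952-18189052) and for dsd and Tusp (chr3R:27607418-27607518). For RpS25 and CG4820 the whole interval between the starts is given (chr3R:11216288-11216534), in which TATCGATA begins at base 52 and the summit is at base 65 of 247.
MED17 and CG12321: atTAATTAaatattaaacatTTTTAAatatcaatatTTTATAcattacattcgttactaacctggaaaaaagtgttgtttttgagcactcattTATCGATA
dsd and Tusp: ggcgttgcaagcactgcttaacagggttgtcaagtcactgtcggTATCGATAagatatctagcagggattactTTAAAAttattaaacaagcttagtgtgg
RpS25 and CG4820: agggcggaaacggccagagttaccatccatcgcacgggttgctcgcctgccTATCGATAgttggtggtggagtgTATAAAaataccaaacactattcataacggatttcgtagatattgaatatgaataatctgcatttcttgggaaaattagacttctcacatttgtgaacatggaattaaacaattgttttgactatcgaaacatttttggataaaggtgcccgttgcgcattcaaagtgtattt

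Most shared peaks lay between divergent genes. The nearest and the next nearest gene were head to head at 464 of the 508 peaks (91.3%, 88.6 to 93.5). The genes of 32 peaks (6.30%) had a common TSS on 1 strand, those of 9 peaks (1.77%) faced each other with overlapping 5′ ends, and those of 3 peaks (0.591%) were in tandem with different TSSs. Upstream of the nearest gene was part of the choice, so the summits of head-to-head members lie between the starts by construction. Without that condition, 562 conservative summits were within 500 bp of both starts of a head-to-head pair, and 464 of them (82.6%, 79.2 to 85.5) lay between the starts. Where the summit lay downstream of the nearest start, 98 of 104 peaks with 2 or more genes (94.2%, 88.0 to 97.3) were head to head. A high head-to-head share was thus not particular to shared peaks. How often tandem or overlapping starts lie this close in the annotation is not given here, so the share is a description only.

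The strongest member was at CG7601 (FBgn0027583) and CIA30 (FBgn0039689), an assembly factor of mitochondrial complex I. The peak spanned 29736687 to 29737004 on 3R, and its signal was 1787 in the conservative list, 900.4 in replicate 1 and 916 in replicate 2. The summit was 107 bp from the start of CG7601 and 113 bp from that of CIA30. The signal is the authors' value per peak. Its scale is not stated, so single values are read against others of the same list, and a ratio between the replicates, which holds any difference in scale between their lists, is compared only between sets of peaks. In shared peaks the conservative value was close to the sum of the replicate values, with a median ratio of 1.00 (quartiles 0.98 and 1.02).

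At 3R, 15229380 to 15229687, a signal of 1667 (905 in replicate 1 and 765 in replicate 2) lay between mRpS10, a protein of the small mitochondrial ribosomal subunit, and Art3, an arginine methyltransferase. Its summit was 128 bp from mRpS10 and 129 bp from Art3, that is, at the midpoint. At 3L, 5139344 to 5139646, the summit between Tcs5, a kinase of the KEOPS complex that modifies tRNA, and CHMP2B, a subunit of the ESCRT-III membrane remodelling complex, was 111 and 113 bp from the starts. Its signal was 1642, with 838 in replicate 1 and 810.0 in replicate 2. The peak between CenG1A, an Arf GTPase-activating protein, and mRpS23 at 2L, 13835307 to 13835612, was placed differently. It had a signal of 1657 (966 in replicate 1 and 697 in replicate 2), with the summit 100 bp from CenG1A and 392 bp from mRpS23. All 4 summits were intergenic.

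Among the 25 members with the highest signal, 23 were head to head, and 15 had starts 200 to 299 bp apart. In 21 of the 25 the nearest start was 80 to 150 bp from the summit, and the range was 10 to 211 bp. All 25 overlapped a thresholded peak of each replicate, beside 65.9% of all conservative peaks. They were picked by high signal, which makes such an overlap likely. By the annotation, 19 of these summits were intergenic, 5 were in introns and 1 was in an exon. Pairs with signalling genes among them were Atat, an alpha-tubulin acetyltransferase, with Shc, an adaptor of receptor tyrosine kinases (signal 1078, 448 in replicate 1 and 632 in replicate 2), and SLIRP2 with Mkk4, a kinase of the JNK pathway (909, 509 in replicate 1 and 406 in replicate 2).

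Chromatin and chromosome genes were present as well. The SWI/SNF ATPase gene brm and Arl1, a GTPase of the Golgi, shared a peak of 855 (394 in replicate 1 and 464 in replicate 2) with the summit 130 bp from Arl1 and 136 bp from brm. The cohesin-associated gene pds5 and Mppe shared a peak of 667 (314 in replicate 1 and 348 in replicate 2). PolD2, a subunit of DNA polymerase delta, shared a peak of 801 with CG13933 (470.1 in replicate 1 and 345 in replicate 2). Membrane traffic was represented by Lamtor3, a subunit of the Ragulator complex, and fws, a subunit of the COG complex of the Golgi, with a peak of 836 (445 in replicate 1 and 390 in replicate 2).

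Mitochondrial and membrane enzymes followed. Lon, a protease of the mitochondrial matrix, and PIG-F, an enzyme of GPI anchor synthesis, shared a peak of 720.4 (340 in replicate 1 and 378 in replicate 2). Coq4, of ubiquinone synthesis, shared a peak of 589 with CG32176 (278 in replicate 1 and 311 in replicate 2). The strongest member on X was at bves and Stt3A, a subunit of oligosaccharyltransferase, with 568 (299 in replicate 1 and 266 in replicate 2) and starts 609 bp apart. The least even member among them was at CG11309 and CG7632, with 459 in replicate 1 and 201 in replicate 2.

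In gaps of 200 to 499 bp the summits kept a similar distance from the nearer start. The starts of head-to-head members were a median of 301 bp apart (quartiles 243 and 403, range 38 to 897). The nearest start was 69.8 to 128 bp from the summit in the middle quartiles. The midpoint limits the distance to the nearest start in every class, most in close pairs. With starts under 100 bp apart (16 members) that start was a median of 18.5 bp away. With 100 to 199 bp (36 members) it was 42.5 bp, with 200 to 299 bp (177 members) the quartiles were 83 and 114 bp, with 300 to 399 bp (115 members) the median was 105 bp (quartiles 76.5 and 140.5), and with 400 to 499 bp (68 members) 109 bp (78.5 and 149). The farther start moved away over the same steps, from a median of 152 bp at 200 to 299 bp of spacing to 248 bp and 332 bp in the next classes. At 500 bp or more (52 members) the nearest start was 166 bp (115 and 208) and the farther start 416 bp away.

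**Figure D1:**
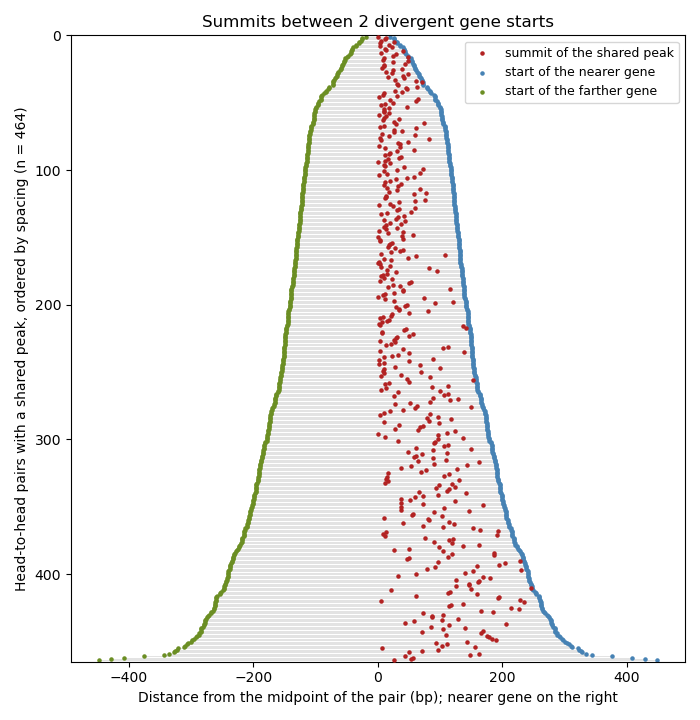
Each of the 464 head-to-head shared peaks is a line ordered by the spacing of its 2 gene starts, with the distance from the midpoint in bp on the x axis and the nearer gene drawn on the right. Summits (red) are within 20 bp of the midpoint in 44.2% of members under 200 bp and in 46.3% at 200 to 299 bp. Their median distance from the nearer start (blue) is about 100 bp at spacings of 200 to 499 bp and 166 bp at 500 bp or more.

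How often the summit lay at the midpoint varied with the spacing. It was within 20 bp of the midpoint in 23 of 52 members (44.2%, 31.6 to 57.7) under 200 bp and in 82 of 177 (46.3%, 39.1 to 53.7) at 200 to 299 bp. The count was 25 of 115 (21.7%, 15.2 to 30.1) at 300 to 399 bp and 6 of 120 (interval 2.31% to 10.5%) at 400 bp or more. A fixed limit of 20 bp covers a smaller part of a wider gap. A nearest start 80 to 150 bp from the summit was found in 255 of 464 head-to-head members (55.0%, 50.4 to 59.4), against 212 of 785 peaks with 1 gene (27.0%, 24.0 to 30.2). These sets are not alike. The nearest of 2 divergent starts lies no farther than the midpoint, while the only start in reach can be up to 500 bp away. At a spacing of 400 bp or more, where the midpoint lies beyond that range, the nearest start was 80 to 150 bp away in 50 of 120 (41.7%, 33.2 to 50.6). Both starts were 80 to 150 bp away in 82 of 464 (17.7%, 14.5 to 21.4), and in 18 of the 50 with the highest signal (36.0%, 24.1 to 49.9).

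Summits were also taken from each replicate on its own. The replicate's own summit lay between the starts in 449 of 464 members in replicate 1 and in 454 in replicate 2, with a median distance to the nearest start of 97 bp in replicate 1 and 103 bp in replicate 2. In 353 of 464 (76.1%, 72.0 to 79.7) both replicates had their summit nearer to the same gene as the conservative summit. At a spacing of 400 bp or more this held for 106 of 120 (88.3%, 81.4 to 92.9). The nearer gene was on the plus strand in 237 of 464 (51.1%, 46.5 to 55.6), so neither strand was favoured beyond counting error.

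Members with starts 200 to 299 bp apart also had the highest signal and overlapped thresholded peaks of both replicates most often. Their median signal was 171, against 100.3 in members under 100 bp, 118 at 100 to 199 bp and 133 to 134 in the 3 wider classes. Of those at 200 to 299 bp, 149 of 177 (84.2%, 78.1 to 88.8) overlapped thresholded peaks of both replicates, beside 65.9% of all conservative peaks and 73.0% of all shared peaks. It was 5 of 16 under 100 bp (31.2%, 14.2 to 55.6), 61.1% at 100 to 199 bp (44.9 to 75.2), 70.4% at 300 to 399 bp, 69.1% at 400 to 499 bp and 71.2% at 500 bp or more. The 3 smallest gaps were at kraken and CG4291 (38 bp, signal 105), CG32022 and CG6511 (52 bp, 401) and trsn and Pef (52 bp, 98.4). The 3 largest were CG13605 and Root (897 bp, 163), CG10931 and sub (857 bp, 97.6) and crc and Mondo (816 bp, 4.63).

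As a background, all 2667 annotated head-to-head pairs with starts up to 1000 bp apart were counted, each by its smallest spacing. The starts nearest a summit can be wider apart. A shared peak lay at 455 of the pairs (17.1%, 15.7 to 18.5). The share was 42 of 428 (9.81%, 7.34 to 13.0) under 100 bp and 36 of 352 (10.2%, 7.48 to 13.8) at 100 to 199 bp. It was 173 of 544 (31.8%, 28.0 to 35.8) at 200 to 299 bp, 102 of 399 (25.6%, 21.5 to 30.1) at 300 to 399 bp and 58 of 269 (21.6%, 17.1 to 26.9) at 400 to 499 bp. Above that it was 44 of 675 (6.52%, 4.89 to 8.64), but there the rule accepts only summits in the middle of the gap. In short gaps the rule leaves out summits that lie downstream of the nearest start, as at 98 further head-to-head peaks with a median spacing of 104.5 bp. With summits on either side counted, an alternative added after the values were seen, the share was 141 of 780 (18.1%, 15.5 to 20.9) under 200 bp and 186 of 544 (34.2%, 30.3 to 38.3) at 200 to 299 bp, with intervals that did not overlap. These shares are per pair. Counted per gene, 910 of 5052 genes in such pairs (18.0%, 17.0 to 19.1) had a shared peak in the pair. Both genes of a pair count at the same peak, so this interval is too narrow. Of 8080 genes with no other coding start within 1000 bp, 549 (6.79%, 6.27 to 7.36) had an upstream peak of their own. Such a peak counts for that gene only, so the shares per gene are not alike.

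Fewer pairs on the X chromosome held a shared peak than pairs on the autosomal arms. The share was 37 of 403 (9.18%, 6.73 to 12.4) on X and 418 of 2253 (18.6%, 17.0 to 20.2) on the autosomal arms, and 0 of 11 on chromosome 4 (upper limit of the interval 25.9%). At 200 to 299 bp it was 15 of 85 on X (17.6%, 11.0 to 27.1) and 158 of 458 on the autosomal arms (34.5%, 30.3 to 39.0). X held 48 of the 508 shared peaks (9.45%), 138 of the 785 peaks with 1 gene (17.6%) and 629 of all 3216 conservative peaks (19.6%).

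**Figure D2:**
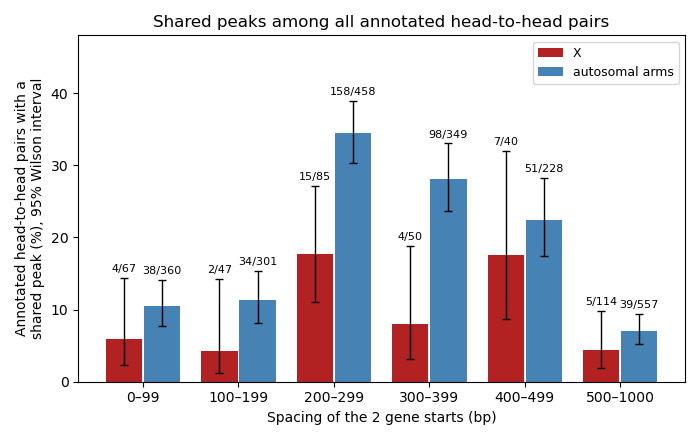
Bars give the percentage of annotated head-to-head pairs that hold a shared peak, by spacing class in bp, for X (red) and the autosomal arms (blue), with 95% Wilson intervals and counts. The share is highest at 200 to 299 bp on the autosomal arms (158 of 458), and lower on X in each class, with overlapping intervals in the classes under 200 bp and from 400 bp. The rule leaves out summits downstream of the nearest start, mostly at close pairs.

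Shared peaks were about as strong as peaks with 1 gene but stood differently in the replicates. The median signal was 141 in shared peaks (quartiles 98.1 and 247, range 4.56 to 1787), 143 in peaks with 1 gene and 128 in all conservative peaks. In replicate 1 the median was 71.2 in shared peaks and 80.3 in peaks with 1 gene, and in replicate 2 it was 68.2 in shared peaks and 64.6 in peaks with 1 gene. The log2 ratio of replicate 1 to replicate 2 had a median of 0.07 in shared peaks, against 0.29 in peaks with 1 gene and 0.29 in all conservative peaks. The base composition of these sets differed too, as given below, and its part in the ratio was not tested.

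The overlap with the thresholded lists was counted for each replicate. A thresholded peak of replicate 1 overlapped 440 of 508 shared peaks (86.6%, 83.4 to 89.3), beside 87.2% of all conservative peaks and 91.2% of peaks with 1 gene (89.0 to 93.0). For replicate 2 it was 418 of 508 (82.3%, 78.7 to 85.4), beside 72.9% of all conservative peaks and 606 of 785 peaks with 1 gene (77.2%, lower limit 74.1%). Thresholded peaks of both replicates overlapped 371 of 508 (73.0%, 69.0 to 76.7), beside 65.9% of all conservative peaks and 568 of 785 peaks with 1 gene (72.4%, 69.1 to 75.4). The share of shared peaks in replicate 1 was near the background, and in replicate 2 both sets were above it. The summits of the replicates were a median of 20 bp apart in shared peaks (quartiles 8 and 43) and 22 bp in all conservative peaks.

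**Figure D3:**
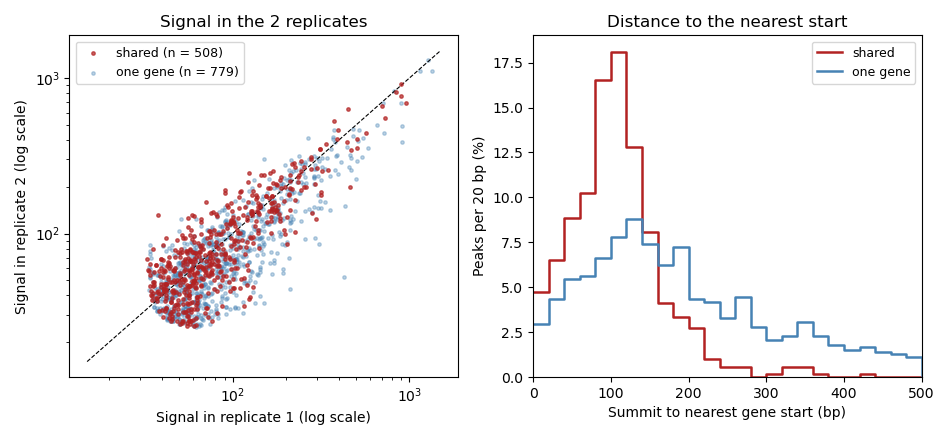
The left panel plots the signal in replicate 2 against that in replicate 1, both on log scales and in the authors' units, for 508 shared peaks (red) and the 779 peaks with 1 gene (blue) that had a value in both, with a dashed line of equal values. The right panel gives the percentage of each set per 20 bp of distance from summit to nearest gene start, with medians of 103 bp in shared peaks and 162 bp in peaks with 1 gene. In shared peaks this is the nearest of 2 or more genes in reach, so the sets are not alike.

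Away from divergent genes, shared peaks were few. The 32 peaks upstream of a common TSS had a median distance of 134 bp to it and a median signal of 129. Of the 273 groups of genes annotated with a common TSS, 31 (11.4%, 8.12 to 15.7) had such a peak. The strongest was 210 bp upstream of Sesn, a stress-responsive regulator of TOR signalling, and CG46429, with a signal of 588 (347 in replicate 1 and 256 in replicate 2). CG8788 and CG44286 followed with 503 (317 in replicate 1 and 184 in replicate 2), then CG44245 and Gyg, a glycogenin, with 338 (203 in replicate 1 and 128 in replicate 2). The peak of lama and CG46456 had 315, and that of CG42353 and CG42354 had 313.

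Further genes with a common TSS, which need not be dicistronic, are named after their values were seen. Adh, alcohol dehydrogenase, and Adhr had a peak of 129 at 279 bp (75.5 in replicate 1 and 55.9 in replicate 2). The neuronal genes stnB and stnA had 79.8 at 332 bp (37.2 in replicate 1 and 36.7 in replicate 2). The pair of small mitochondrial proteins sloth1 and sloth2 had 191 at 96 bp (110.0 in replicate 1 and 82.3 in replicate 2). The germ line helicase gene vas and solo, a gene for chromosome cohesion in meiosis, had 103 at 102 bp (59.2 in replicate 1 and 46.8 in replicate 2).

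Overlapping 5′ ends and tandem starts made up the smallest classes. The strongest of the 9 with overlapping ends was 105 bp upstream of Adck1, a mitochondrial kinase-like protein, and in an annotated exon, with CG4741 as the other gene and a signal of 571 (320 in replicate 1 and 253 in replicate 2). It was followed by CG31808 and Cyt-c-d, a cytochrome c gene, with 422 (296 in replicate 1 and 125 in replicate 2), the sugar transporter genes sut1 and slv with 141, Lkb1, a kinase upstream of AMPK, and CG9588 with 132, and eRF3 and SC35 with 112. The 3 tandem peaks were at chb, a microtubule-binding CLASP protein, and AsnS, asparagine synthetase (326, with 174 in replicate 1 and 148 in replicate 2), at RabGGTb and Sbat (151) and at CG13601 and CG43998 (7.59).

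At 21 peaks 3 or more genes were in reach, with a median signal of 151 (range 69.8 to 396), and 19 of these overlapped thresholded peaks of both replicates, beside 65.9% of all conservative peaks and 73.0% of all shared peaks. CG3744, CG11089 and CG31381 had 396 (178 in replicate 1 and 206 in replicate 2), and Pax, the focal adhesion protein paxillin, Alp12 and CG13085 had 393 (209 in replicate 1 and 180.4 in replicate 2). The peak with 5 genes lay 104 bp from NC2alpha, a subunit of a repressor of TBP, beside PIG-M and 3 short genes, CG42379, CG42380 and CG42381. It had 284, with 90.5 in replicate 1 and 192 in replicate 2. HemK2, Snapin and Tnpo-SR had 277 (139 in each replicate), and rumi, a glycosyltransferase that modifies Notch, Usp12-46 and CG7029 had 257 (135 in replicate 1 and 121 in replicate 2).

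The 508 peaks covered 496 gene pairs, because 12 pairs had 2 peaks. At 8 of these 12 the summits were 199 to 203 bp apart, the stronger peak having a signal of 85.8 to 346 and the weaker 4.56 to 57.4, and at 7 of the 8 the weaker summit was nearer to the other gene. Autophagy gene Atg2 and CG12093, for example, had 346 near CG12093 and 20.2 near Atg2, and Fur1, a furin protease, and Vps33B had 332 near Fur1 and 57.4 near Vps33B. In all, 31 members overlapped another conservative peak, and replicate values of such neighbours can come from the same replicate peak. A signal under 20 was found in 7 members, whose overlapping replicate peaks had 40.7 to 63.2 in replicate 1 and 27.4 to 48.6 in replicate 2. At the edge of the rule, 4 members had their next gene 491 to 500 bp away, with signals of 83.7 to 310 (median 138), and 2 peaks just outside, at 501 to 510 bp, had 69.9 and 104.

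Shared summits lay in AT-rich sequence between genes. Of the 508, 404 were intergenic (79.5%, 75.8 to 82.8), 70 in introns and 34 in exons, against 423 of 785 intergenic for peaks with 1 gene (53.9%, 50.4 to 57.3). The rule itself puts the summits of head-to-head members between the starts, so this share is a description of the choice. The summit with 50 bases on either side held 31.2% ± 9.38 G+C (SD over 508 peaks), against 34.9% ± 10.3 in peaks with 1 gene, 33.7% ± 9.64 in all conservative peaks and 37.5% ± 11.0 in windows at the same distance upstream of all 13968 genes. Composition went with spacing: 44.8% ± 8.07 under 100 bp (16 members), 35.5% ± 11.8 at 100 to 199 bp, 27.9% ± 8.01 at 200 to 299 bp, 30.6% ± 8.08 at 300 to 399 bp, 32.8% ± 9.16 at 400 to 499 bp and 34.0% ± 8.21 at 500 bp or more. In the closest class the window is longer than the gap and takes in transcribed sequence. At 100 to 199 bp the nearest start was a median of 42.5 bp away, so many windows there cross it too. The lowest G+C was not at the summit but 40 bp from it on the side away from the nearest start, with 27.8% in head-to-head members and 32.4% in peaks with 1 gene.

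**Figure D4:**
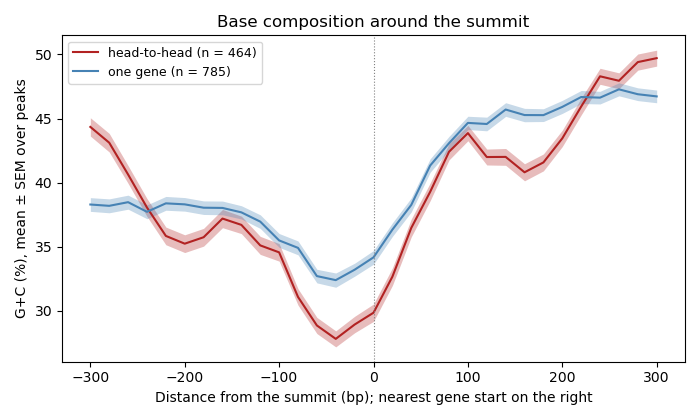
Mean G+C in 21-base steps by distance from the summit in bp, with the nearest gene start on the right and bands of ± 1 SEM over peaks, for head-to-head shared peaks (red) and peaks with 1 gene (blue). Both have their minimum 40 bp from the summit on the left, at 27.8% in head-to-head members and 32.4% in peaks with 1 gene.

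Annotated pairs give a comparison with the window at the same place in the gap. Spacing was not matched within a class: 173 of 544 pairs at 200 to 299 bp and 102 of 399 at 300 to 399 bp had a shared peak. Pairs without a shared peak can still have a summit downstream of the nearest start. Under 200 bp, 141 of 780 pairs had a summit on either side, and 78 a shared peak. The same limits hold for the words at midpoints below. With starts 200 to 399 bp apart, the window of the same length at the midpoint held 25.9% ± 7.01 G+C in 275 pairs with a shared peak and 28.7% ± 8.52 in 668 pairs without one (SD over pairs). Under 200 bp the values were 41.0% ± 9.46 in 78 pairs with a shared peak and 42.3% ± 8.57 in 702 without. The difference, pairs with a shared peak minus pairs without, was -2.75 ± 0.536 percentage points at 200 to 399 bp and -1.31 ± 1.12 under 200 bp (SE over pairs).

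Short words that occur in core promoters were counted on both strands of the same summit windows. The AT-rich words were found more often at shared peaks. TTAAAA occurred in 45.7% of shared peaks (lower limit 41.4%), 34.9% of peaks with 1 gene (31.7 to 38.3), 34.9% of all conservative peaks and 27.8% of the windows upstream of all genes. TAATTA occurred in 15.6% of shared peaks (12.7 to 19.0), 7.52% of peaks with 1 gene (5.87 to 9.57), 10.2% of all conservative peaks and 9.54% of all upstream windows. TATAAA, the TATA box word, occurred in 26.8% of shared peaks, 19.9% of peaks with 1 gene, 21.8% of all conservative peaks and 18.2% of all upstream windows. GAGAG, part of the GAGA factor site, was found in 5.51% of shared peaks, 10.2% of peaks with 1 gene, 8.30% of all conservative peaks and 13.4% of all upstream windows. The frequency of such short words depends on base composition, and their share at equal composition was not tested.

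At the midpoints of annotated pairs 200 to 399 bp apart, TATAAA occurred in 38.5% with a shared peak (33.0 to 44.4) and 26.9% without (23.7 to 30.4). TTAAAA occurred in 50.5% with (44.7 to 56.4) and 43.0% without (39.3 to 46.7). The motif 7 words of fly core promoters, CAGCNCTA and CATCNCTA, occurred in 10 of 275 with a shared peak (3.64%, 1.99 to 6.56) and 6 of 668 without (0.898%, 0.412 to 1.95). Under 200 bp the order was not the same: motif 7 words occurred in 6.41% with a shared peak and 7.12% without (5.44 to 9.27), TATAAA in 11.5% with and 10.8% without, and TTAAAA in 21.8% with (14.1 to 32.2) and 16.5% without (14.0 to 19.5). At summits, motif 7 words were found in 5.51% of shared peaks, 4.08% of peaks with 1 gene, 2.55% of all conservative peaks and 2.10% of all upstream windows. GGTCACAC, the motif 1 word, occurred in 1.18% of shared peaks, 0.764% of peaks with 1 gene, 0.746% of all conservative peaks and 1.30% of all upstream windows. At the midpoints of pairs under 200 bp it stood in 1 of 78 with a shared peak (interval 0.227% to 6.91%) and in 69 of 702 without (9.83%, 7.84 to 12.3). Of the E-box words, CAGCTG was found in 4.72% of shared peaks and 4.93% of all upstream windows, and CACGTG in 0.394% of shared peaks and 1.04% of all upstream windows.

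TATCGATA was found at 24 shared peaks (4.72%, 3.20 to 6.93), against 2.55% of peaks with 1 gene, 1.65% of all conservative peaks and 2.50% of all upstream windows. The shorter word CGATA, which TATCGATA contains, was found in 22.4% of shared peaks, 17.8% of peaks with 1 gene, 14.7% of all conservative peaks and 19.8% of all upstream windows. All 24 were at head-to-head pairs, 10 of 52 with starts under 200 bp apart (19.2%, 10.8 to 31.9) and 14 of 412 wider ones (3.40%, 2.03 to 5.62). Among annotated pairs under 200 bp the word stood at the midpoint in 11 of 78 with a shared peak (14.1%, 8.06 to 23.5) and in 102 of 702 without (14.5%, 12.1 to 17.3). These intervals overlapped. Besides the sequences printed above, it was found at the Rack1 and mts peak (signal 170), between a ribosomal scaffold gene and a catalytic subunit of protein phosphatase 2A.

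By function, genes of ribosomes and of several basic complexes were found at shared peaks more often than coding genes as a whole (7.24%, 6.82 to 7.68). Of 86 genes for cytoplasmic ribosomal proteins 20 had a shared peak (23.3%, 15.6 to 33.2), and of 73 for mitochondrial ribosomal proteins 14 (19.2%, 11.8 to 29.7). Among 35 aminoacyl-tRNA synthetase genes, whose enzymes load tRNAs, there were 7 (upper limit of the interval 35.9%). The counts were 7 of 15 for peroxins, which build peroxisomes (46.7%, 24.8 to 69.9), 3 of 10 for the RNA exosome (interval 10.8% to 60.3%), 3 of 11 for Elongator and KEOPS (27.3%, 9.75 to 56.6), 5 of 25 for Mediator (8.86 to 39.1) and 5 of 28 for ESCRT and Vps proteins (17.9%, 7.88 to 35.6). For other complexes the interval spanned the share of all genes, with 5 of 31 for RNA polymerase subunits, 3 of 23 for TFIID and general transcription factors, 8 of 84 for nuclear subunits of oxidative phosphorylation, 5 of 53 for translation factors, 4 of 48 for the proteasome, 1 of 15 for mitochondrial import and 1 of 21 for DNA replication. The DNA replication list held Mcm2 but not PolD2 or RPA1, which were also at shared peaks, so its count is incomplete. The ESCRT and Vps list did not hold Vsp37A, at shared peaks with CG13365, so its count may be incomplete too. None of 179 chemoreceptor genes had a shared peak, with an upper limit of 2.10%, and none of the 8 Hox genes, with an upper limit of 32.4%. A promoter peak of any kind, shared ones included, was found at 53 of the 86 cytoplasmic ribosomal protein genes. It was found at 19 of the 73 mitochondrial ones, 8 of the 15 peroxin genes and 2040 of all 13968 coding genes. The excess of cytoplasmic ribosomal protein genes was thus not particular to shared peaks. Chemoreceptor genes had no promoter peak of any kind. Genes at the same peak, such as Pex16 and Pex14, are not independent, so the intervals for peroxins and all genes are too narrow.

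The lists also differed in how many of their genes lie head to head. In an annotated head-to-head pair with starts up to 1000 bp apart were 53 of the 86 cytoplasmic ribosomal protein genes (61.6%), 58 of the 73 mitochondrial ones (79.5%), 12 of the 15 peroxin genes and 26 of the 179 chemoreceptor genes (14.5%), against 5052 of all 13968 genes (36.2%). Of the genes in such pairs, 19 of 53 for cytoplasmic ribosomal proteins (35.8%, 24.3 to 49.3) and 7 of 12 for peroxins (58.3%, 32.0 to 80.7) had a shared peak in the pair, against 910 of 5052 for all genes (18.0%, 17.0 to 19.1). For mitochondrial ribosomal proteins it was 14 of 58 (24.1%, interval up to 36.5) and for aminoacyl-tRNA synthetases 7 of 24 (29.2%, 14.9 to 49.2), with intervals that held the share of all genes, as did those of the exosome, Elongator and KEOPS, Mediator and the ESCRT and Vps proteins. Of the 26 chemoreceptor genes in pairs none had one (upper limit 12.9%). Both genes of a pair count at the same peak, as Pex16 and Pex14 do, so intervals for peroxins and all genes are too narrow.

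**Figure D5:**
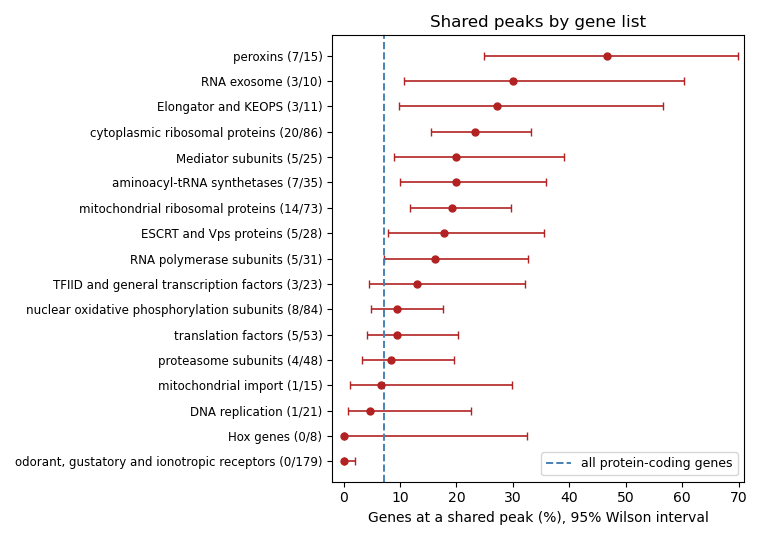
Points give the percentage of genes in each list that had a shared peak, with counts beside the list names and 95% Wilson intervals as bars, and the dashed line marks all protein-coding genes (7.24%). Peroxins are at the top with 7 of 15 and chemoreceptors at the bottom with 0 of 179. Pex16 and Pex14 count at the same peak.

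Both kinds of ribosomal gene had shared peaks, but their summits lay differently. Of the 19 head-to-head peaks of cytoplasmic ribosomal protein genes, the ribosomal gene was the nearer in 16, and its start was a median of 80 bp from the summit over the 19. Those with the shortest distance, picked after the values were seen, follow. RpS27 was 1 bp from the summit (signal 393, 226 in replicate 1 and 164 in replicate 2), RpS18 6 bp (160, 112 in replicate 1 and 51.0 in replicate 2), RpS21 9 bp (206, 118 in replicate 1 and 82.0 in replicate 2) and RpS19a 10 bp (133, 97.1 in replicate 1 and 42.8 in replicate 2). The strongest peak, with 447 (233 in replicate 1 and 215 in replicate 2), was 162 bp from RpL32 and nearer to CG7943. RpL34b had 335 and RpL41 298. Of the 14 head-to-head mitochondrial ribosomal protein genes, 5 were the nearer and 9 the farther gene, with a median of 149 bp between summit and start over the 14. mRpS2, across from Mon1, had 504 (294 in replicate 1 and 209 in replicate 2) at 143 bp, and mRpL24, across from betaggt-I, had 456 (261 in replicate 1 and 199 in replicate 2) at 116 bp.

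The 20 peaks at cytoplasmic ribosomal protein genes also differed in sequence from the rest, a comparison chosen after the values were seen. They held 41.9% ± 10.8 G+C, against 28.3% ± 7.59 at the 15 peaks of mitochondrial ribosomal protein genes and 30.9% ± 9.10 at the 473 other members (SD over peaks). TATCGATA was found at 6 of the 20 (interval 14.5% to 51.9%), at 0 of the 15 mitochondrial ribosomal protein peaks (upper limit 20.4%) and at 18 of the 473 other members (3.81%, 2.42 to 5.93). Their log2 ratio of replicate 1 to replicate 2 had a median of 0.43, against 0.24 at mitochondrial ribosomal protein genes and 0.05 in the other members. At RpS27, RpS18, RpS21 and RpS19a the start was 1 to 10 bp from the summit, so the sequence windows there take in transcribed bases. In the closest spacing class, with the nearest start a median of 18.5 bp away, G+C was 44.8% and TATCGATA stood at 4 of 16 members. Distance to the start was not matched between these sets, and its part in the sequence difference was not tested.

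Further complexes were represented as follows. GluProRS had a peak of 385 (176 in replicate 1 and 210 in replicate 2) shared with AP-1sigma, a clathrin adaptor subunit, and IleRS one of 269 shared with Hem, a subunit of the WAVE complex (128 in replicate 1 and 135 in replicate 2). Among Mediator genes, whose product links transcription factors to RNA polymerase II, MED30 and Rev1 shared 342 (172 in replicate 1 and 159 in replicate 2), MED27 and elm 316 (130 in replicate 1 and 188 in replicate 2) and MED17 and CG12321 218 (75.1 in replicate 1 and 135 in replicate 2). Taf5, a TFIID subunit, and Pex6, an ATPase of peroxisomal import, shared a peak of 375 (189 in replicate 1 and 196 in replicate 2), 147 bp from Pex6 and 154 bp from Taf5. The general factor genes TfIIA-L and TfIIB had 197 and 131, and Polr2B and Polr2J, subunits of RNA polymerase II, had 237 and 205.

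Some peaks lay between 2 genes of the lists, or between a listed gene and a gene of related function. They are named for that after their values were seen. Pex16 and Pex14 shared a peak of 119 (60.8 in replicate 1 and 54.6 in replicate 2), 82 bp from Pex16 and 453 bp from Pex14. RpL28 and the initiation factor gene eIF1 shared 135 (61.1 in replicate 1 and 66.8 in replicate 2), mRpL39 and the proteasome gene Prosbeta2 68.4 (47.4 in replicate 1 and 34.7 in replicate 2), and Mcm2, of the replicative helicase, and RPA1 148 (53.6 in replicate 1 and 93.1 in replicate 2). Elp4 of Elongator and Vps52 of the GARP tethering complex shared 178 (102 in replicate 1 and 85.2 in replicate 2). Among respiratory chain genes the strongest was ND-ASHI, a complex I subunit, with Fum1, fumarase, at 474 (239 in replicate 1 and 240 in replicate 2), followed by ND-MWFE with TppII at 248 (93.0 in replicate 1 and 153 in replicate 2).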

How the data were processed

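Peak lists from 2 biological replicates of 1 group were used. Each peak carried a signal value, as the authors deposited it, on an unstated scale. The joint ranking of both replicates gave each peak a −log10 global IDR (irreproducible discovery rate), also as deposited, and the conservative peaks were all at 0.01 or below. Coordinates are dm6, per the file notes. The sources used here name neither an aligner nor a peak caller. Read counts were not used here, and the depth is unknown.

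Summits were placed against TSSs of all protein-coding transcripts of Ensembl release 115, and bases were read from the RefSeq release 6 genome. A tie in distance went to the TSS the summit was upstream of. A pair consisted of the nearest and the next nearest gene, each by its TSS closest to the summit. Replicate values are those of an overlapping peak (1 bp or more) in the ranked list of each replicate. Base composition and 10 kinds of word were counted over the summit base with 50 bases on either side, and upstream windows of all genes were centred 103 bp from the gene's 5′ end. Gene lists were made from gene symbols, and wrong members of 2 lists were removed after the values were seen. The classification was tested on simulated summits. With 1 group no test of groups was made.

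Named items were the 25 members with the highest signal, the top 5 of each orientation and of members with 3 or more genes, the 3 smallest and 3 largest spacings, and up to 4 genes per list; any others were chosen after their values were seen. The members and lists were chosen with earlier results of these data known. Alternatives varied the promoter window, the TSS set, the peak list, the IDR, the overlap, the sequence window and the replicates. The software was matplotlib 3.10.9, scipy 1.17.1, pandas 2.3.3, numpy 2.4.6 and Python 3.11.15.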

Additional observations from a re-analysis of the deposited data

How the results depend on the processing

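Of 72 recomputed values 50 moved by less than the spread between the replicates (1 SD), and 22 moved by more, or for the count by over 1.5 times. A promoter window of 200 bp gave 270 shared peaks in place of 508, a median spacing of 244.5 bp in place of 301 and a median signal of 152 in place of 141. A window of 1000 bp gave a head-to-head share of 87.8% in place of 91.3%, a spacing of 344.5 bp and a signal of 136. Conservative peaks with a global IDR up to 0.001 gave 331 peaks, a spacing of 298 bp, a signal of 191 and a share in both replicate lists of 96.4% in place of 73.0%. That share was 56.2% with the optimal list and 60.6% where the overlap had to cover at least 50% of both peaks. A single TSS per gene gave a spacing of 296 bp. With 100 bp to each side of the summit, G+C was 33.8% in place of 31.2%, and TATCGATA was found in 10.6% in place of 4.72%, against 2.36% with 25 bp, 5.20% with the optimal list and 3.32% at the stricter IDR. Leaving out 1 replicate gave 479 to 526 peaks, a head-to-head share of 87.3% to 92.1%, a spacing of 300 to 304 bp and TATCGATA in 3.55% to 4.18%. The median distance to the nearest TSS stayed within the replicate spread under all alternatives. No paired analysis was possible because there is only 1 group. Depth is unknown, so no value could be set against it.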
